A study of Mus musculus with 2 samples.

Results

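Histone genes were examined in splenic regulatory T cells (Treg cells, CD4 T cells that restrain immune responses) from mice lacking Bach2 and from wild-type mice. Bach2 is a lymphocyte transcription factor known chiefly for repressing its targets. The members were all probes whose platform-annotation symbol named an H1, H2A, H2B, H3 or H4 histone gene or a macroH2A gene, with the MHC genes named H2- left out. This gave 77 of the 25697 probes and 69 of the 16593 named genes. By symbol, 55 genes were classed as replication-dependent and 14 as variant. RefSeq held 111 genes whose symbols met the same rule, so 69 of them were measured. The Bach2 KO sample came from knockout mice aged 7 weeks, and the WT sample from wild-type mice aged 6 weeks. Both were on the C57BL/6 background, both were labelled male, and both consisted of CD4+ spleen cells sorted for CD25 and GITR. There was 1 array per genotype, and the sources used here do not give the number of animals pooled, the form of the knockout allele or which cells of these mice lack Bach2. Age, sex and handling cannot be told apart from genotype.

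Histones package DNA into nucleosomes: H2A, H2B, H3 and H4 form the core, and the linker histone H1 sits on the DNA between cores. Replication-dependent histone genes lie mostly in clusters as many near-identical copies, are transcribed chiefly in S phase, and give mRNAs that end in a stem-loop instead of a poly(A) tail. Variant genes lie mostly outside the clusters, are usually expressed through the cell cycle from ordinary polyadenylated mRNAs, and encode proteins with special tasks, such as H2A.X in DNA break signalling, H2A.Z at promoters and H3.3 at active genes. In T cells, as in other cells, replication-dependent histone transcripts are known to mark dividing cells. The sources used here do not say how the RNA was primed for labelling. Some clustered genes can also give polyadenylated transcripts, and which members do so in these cells was not examined.

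Values are log2 intensities after background correction and quantile normalization, and every difference is KO minus WT. Detection means a detection p-value below 0.01, and the brightest probe that met it stood for its gene. Where 1 array alone detected a gene, its fold is a lower bound: the level on that array is set against the dimmest detected probe of the other array, or against the gene's own value there if that is higher. As each genotype had 1 array, no replicate error, test or p-value can be given for any difference. The only scatter available is that between probes of 1 gene, whose log2 differences had an SD of 0.23 over 1734 genes. In all, 10373 probes were detected on the KO array and 10431 on the WT array. Over the 7611 genes compared, the share at least 1.5-fold higher in the KO sample was 8.15% and the share at least 1.5-fold lower 6.77%, while 3.27% were at least 2-fold higher and 1.55% at least 2-fold lower. With median scaling in place of quantile normalization the split at 1.5-fold was 744 higher and 373 lower, against 620 and 515.

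The samples were checked against their labels. Bach2 itself was not analysed here, since none of the named probes carried its symbol. The 7 Treg markers were detected on both arrays and all lay within 1.5-fold, with Foxp3, the lineage factor, at 13.02 in the KO sample and 13.13 in WT. Sex-linked transcripts went against the male label of the KO sample: Xist, the RNA that coats the inactive X chromosome of females, stood at 8.66 there and was not detected in WT, a difference of at least 7.27-fold, and the Y-linked genes Kdm5d, Eif2s3y and Uty were 6.37-fold, 3.60-fold and at least 2.05-fold lower in the KO sample. Kdm5d and Eif2s3y were still detected in the KO sample, at 7.08 and 9.94, beside 9.75 and 11.79 in WT. Whether the KO sample held mice of both sexes was not tested. The X-linked histone members H2al1e, H2al1m, H2al1n and H2ap were not detected on either array, and every detected histone member is autosomal. Markers of other cells also differed: all 5 neutrophil genes were at least 2-fold lower in the KO sample (summed normalized intensity 607 in KO and 3039 in WT), as were 2 of 3 detected red cell genes, while Nkg7, an NK and cytotoxic cell gene, was 3.24-fold higher. At least 1.5-fold higher were 2 of 3 detected NK genes (summed intensity 2340 in KO and 864 in WT), 1 of 2 detected B cell genes (1476 in KO and 692 in WT), 1 of 2 plasma cell genes and 1 of 2 myeloid genes. The B cell genes Ms4a1 and Pax5, the NK gene Ncr1, the CD8 gene Cd8a and the platelet genes Pf4 and Itga2b were not detected on either array. The CD8 gene Cd8b1 was detected on both, with a difference of 0.20. The part of these other cells in the histone result was not tested, and in bulk RNA fewer cells of a type and less RNA per cell cannot be told apart.

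Of the 69 histone genes, 46 were detected on at least 1 array: 40 of 55 replication-dependent genes and 6 of 14 variants. The replication-dependent class was higher in the KO sample nearly throughout. In this class 26 of the 40 genes were at least 1.5-fold higher, against the background of 8.15%, and 12 were at least 2-fold higher, against 3.27%. A single gene, H2bc4, was at least 1.5-fold lower, against 6.77%, and 13 lay within 1.5-fold. By any amount, 35 of the 40 were higher in the KO sample, against 46.7% of all genes. The median difference of the class was 0.82 (1.77-fold), beside -0.03 over all genes compared. Among the 6 variants the median was 0.14, and H2ax alone passed 1.5-fold in either direction. The class medians thus differed by 0.69. Of the replication-dependent genes, 35 were detected on both arrays, 5 on the KO array only and none on the WT array only. Of all 7611 genes compared, 6994 were detected on both arrays, 288 on the KO array only and 329 on the WT array only. Detection on 1 array only favours genes that differ, so the replication-dependent median was also taken with such genes at their bounds, which gave 0.79. Over the 35 genes detected on both arrays, of which 25 were at least 1.5-fold higher, the median was 0.82.

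**Figure D1:**
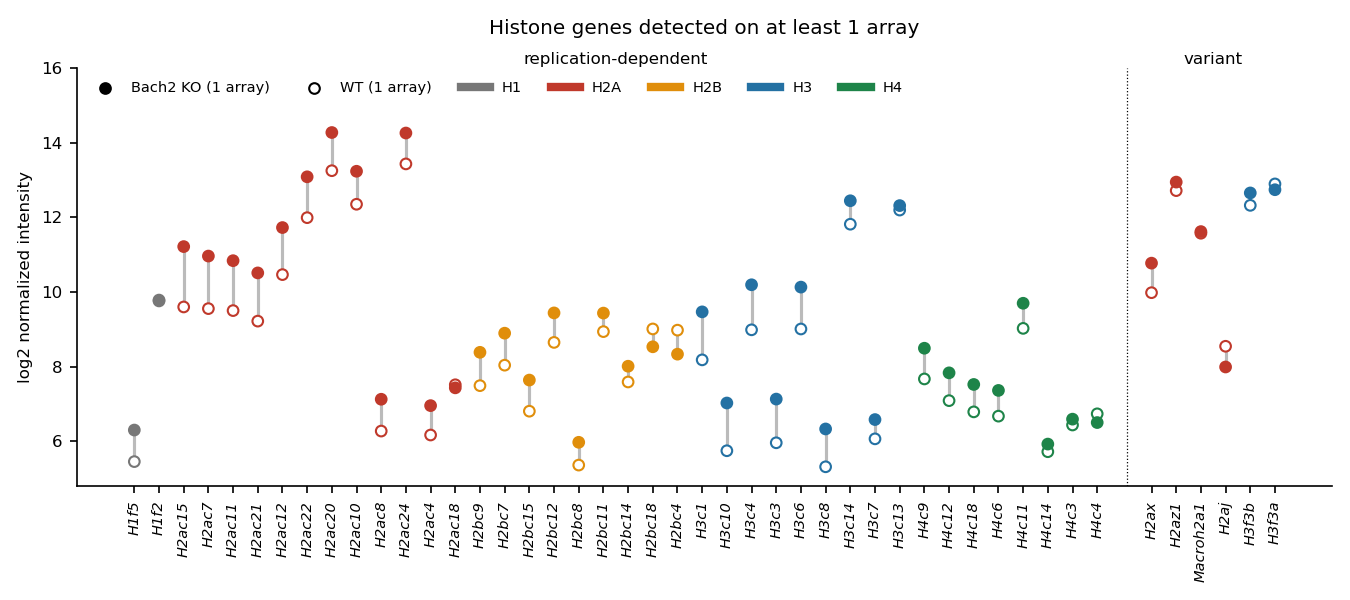
Log2 normalized intensity (vertical axis) of the 46 detected histone genes, with filled points for the KO array and open points for the WT array, coloured by histone family and split into replication-dependent and variant genes. The filled point lies above the open one for 35 of 40 replication-dependent genes and for 4 of 6 variants.

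The core histone families differed in the size of the shift. H2A and H3 genes stood furthest above WT, with medians of 1.06 over 12 detected H2A genes and 1.12 over 9 H3 genes. The 8 detected H4 genes had a median of 0.68 and the 9 H2B genes one of 0.61. At least 1.5-fold higher were 11 of the 12 H2A genes, 6 of the 9 H3 genes, 5 of the 8 H4 genes and 4 of the 9 H2B genes, against 8.15% of all genes. The genes past 2-fold were 7 H2A and 5 H3 genes. On the deposited series matrix values the H3 median was 0.61 and that of H2A 1.05, with H2B at 0.43 and H4 at 0.42. Which copy a probe reports is uncertain, because members of a family are near copies. RefSeq lists the symbol of another member as a synonym for 26 of the 55 replication-dependent genes, and the probe sequences were not used here, so a probe may report several copies.

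**Figure D2:**
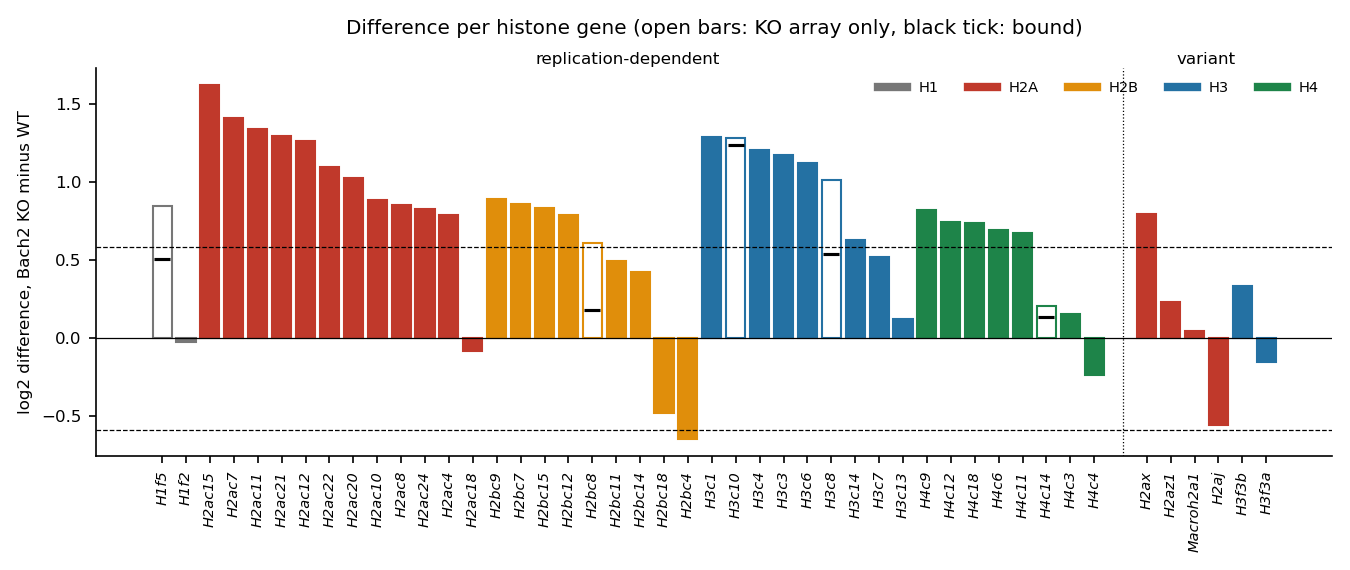
Log2 difference, KO minus WT, for each detected histone gene, with bars coloured by family and dashed lines at 1.5-fold. Open bars are the 5 genes detected on the KO array only and black ticks their bounds; the longest bar is H2ac15 at 1.62 and the lowest H2bc4 at -0.64.

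Among the H2A genes the largest difference was that of H2ac15, which had a deposited intensity of 2375 in the KO sample and 749 in WT. After normalization these were 11.21 and 9.60, a 3.07-fold difference. H2ac7 stood at 10.96 in KO cells and 9.55 in WT cells, and was 2.65-fold higher. These 2 genes lie in the large cluster on chromosome 13, as do H2ac11, with 10.84 in KO and 9.50 in WT (2.53-fold higher), and H2ac12, with 11.72 in KO and 10.46 in WT (2.39-fold higher). H2ac21 lies in the smaller cluster on chromosome 3. It had 10.51 in the KO sample and 9.22 in WT, a 2.45-fold difference. H2ac22 reached 13.08 in KO and 11.99 in WT, and H2ac20 reached 14.27 in KO and 13.25 in WT. Both were just past 2-fold. Below 2-fold came H2ac10 (13.23 in KO, 12.35 in WT), H2ac8 (7.13 in KO, 6.28 in WT), H2ac24 (14.26 in KO, 13.43 in WT) and H2ac4 (6.96 in KO, 6.17 in WT), at 1.84-fold, 1.80-fold, 1.77-fold and 1.72-fold. These genes span dim and bright probes, and the deposited intensities of H2ac20 (19790) and H2ac24 (19547) on the KO array came near the highest value on that array, 25112. The exception was H2ac18, a chromosome 3 gene, with 7.43 in KO cells and 7.52 in WT cells. On the deposited series matrix values, H2ac8 and H2ac4 fell short of 1.5-fold, at 0.45 and 0.40, and H2ac4 also did with an offset of 50, at 0.58.

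Promoter stretches of 3 H2A genes are shown because they carry the largest differences on each chromosome and the promoter with the most kinds of histone promoter motif. They come from RefSeq (GRCm38.p6), run 5′ to 3′ on the gene's strand up to the first 30 bases after the annotated start, and begin 250 bases before the start or next to the start of a divergent neighbour. Capitals mark TATAAA (the TATA box), CCAAT (the CCAAT box), ATTTGCAT (the octamer of H2B promoters, bound by Oct-1) and TTTCGCGC (a form of the E2F site, E2F factors being regulators of S phase genes), on either strand. H2ac15 and H2bc15 start 164 bases apart on opposite strands and share the stretch at chr13:21753883-21754075 (minus strand for H2ac15). H2ac12 and H2bc12 start 178 bases apart and share the stretch at chr13:22035614-22035820 (minus strand for H2ac12). The H2ac21 stretch lies at chr3:96219635-96219914 (plus strand).
H2ac15: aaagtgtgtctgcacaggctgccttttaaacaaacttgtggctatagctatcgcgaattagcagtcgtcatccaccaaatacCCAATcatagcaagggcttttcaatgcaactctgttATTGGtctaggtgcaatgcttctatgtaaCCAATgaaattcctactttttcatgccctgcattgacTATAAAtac
H2ac12: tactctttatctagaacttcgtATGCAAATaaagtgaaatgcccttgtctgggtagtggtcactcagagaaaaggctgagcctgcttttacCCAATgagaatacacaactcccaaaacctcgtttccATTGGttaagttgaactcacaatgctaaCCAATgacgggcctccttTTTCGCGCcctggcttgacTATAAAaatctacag
H2ac21: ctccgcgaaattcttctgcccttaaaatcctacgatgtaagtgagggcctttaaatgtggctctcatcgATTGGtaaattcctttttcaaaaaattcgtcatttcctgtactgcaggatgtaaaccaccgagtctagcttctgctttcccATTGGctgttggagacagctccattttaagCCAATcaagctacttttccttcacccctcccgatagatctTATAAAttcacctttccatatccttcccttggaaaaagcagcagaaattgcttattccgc
In all 3 there are 3 CCAAT boxes, on both strands. The TATA box of H2ac21 begins 30 bases before the annotated start, whereas those of H2ac15 and H2ac12 begin 22 and 16 bases after it. In H2ac12 the octamer, read on the other strand and so facing H2bc12, begins 155 bases before the start of H2ac12, and TTTCGCGC begins 4 bases before it.

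H3 genes encode the replication-coupled forms H3.1 and H3.2. H3c1 had 9.47 in KO cells and 8.18 in WT cells, a 2.44-fold difference, and H3c4 had 10.19 in KO and 8.99 in WT, 2.31-fold. H3c6 stood at 10.13 in KO and 9.01 in WT, 2.18-fold higher. H3c3, a dim gene, had 7.13 in KO and 5.96 in WT, 2.25-fold higher. H3c10 was detected in the KO sample only, where it had 7.03, and was at least 2.35-fold higher. H3c8 was also detected in the KO sample only (6.33 there, 5.32 in WT), with a bound of 1.45-fold. An offset of 1, a detection threshold of 0.05 or keeping all dim probes took it past 1.5-fold. All these genes lie on chromosome 13. The chromosome 3 genes differed less. H3c14 had 12.44 in KO and 11.81 in WT, 1.55-fold higher, and H3c13 had 12.31 in KO and 12.19 in WT, a difference of 0.12. H3c7, back on chromosome 13, had 6.58 in KO and 6.07 in WT, 1.43-fold higher, and passed 1.5-fold with an offset of 1. No H3 gene was lower in the KO sample. On the series matrix values H3c10 and H3c3 were at 0.61 and 0.59, just past 1.5-fold.

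The promoter of H3c10, the H3 gene with the largest difference among those with a RefSeq promoter entry, lies at chr13:21717378-21717657 (GRCm38.p6, plus strand) and is shown with the same marks.
H3c10: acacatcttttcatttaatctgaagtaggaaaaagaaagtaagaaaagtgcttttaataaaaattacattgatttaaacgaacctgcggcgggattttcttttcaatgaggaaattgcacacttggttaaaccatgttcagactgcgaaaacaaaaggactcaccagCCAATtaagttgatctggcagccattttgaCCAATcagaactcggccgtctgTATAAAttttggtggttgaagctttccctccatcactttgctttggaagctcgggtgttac
Its CCAAT boxes begin 83 and 53 bases before the start and its TATA box 31 bases before it.

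H2B genes lay on both sides of WT. H2bc9 had 8.38 in KO cells and 7.49 in WT cells, a 1.86-fold difference, H2bc7 had 8.90 in KO and 8.04 in WT (1.81-fold), H2bc15 had 7.64 in KO and 6.81 in WT (1.78-fold) and H2bc12 had 9.44 in KO and 8.65 in WT (1.73-fold). H2bc11 and H2bc14 were higher by less than 1.5-fold, with 9.43 in KO and 8.94 in WT for H2bc11 and 8.01 in KO and 7.59 in WT for H2bc14. H2bc8 was detected in the KO sample only, at least 1.13-fold higher, and passed 1.5-fold with a detection threshold of 0.05 and with no filter. The other two H2B genes were lower in the KO sample. H2bc4 had 8.34 in KO and 8.98 in WT, a difference of -0.64. H2bc18, on chromosome 3, had 8.53 in KO and 9.01 in WT, a difference of -0.48. H2bc4 fell short of 1.5-fold with the deposited series matrix values (-0.52) and with median scaling (-0.57). H2bc15 was at 0.51 on the series matrix values, also short of 1.5-fold.

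Nearly all H4 genes encode the same protein, so copies can differ in expression without changing the product. H4c9 had 8.49 in KO cells and 7.67 in WT cells, a 1.77-fold difference, and H4c11 had 9.70 in KO and 9.03 in WT, 1.59-fold. H4c12 (7.84 in KO, 7.09 in WT), H4c18 (7.52 in KO, 6.79 in WT) and H4c6 (7.36 in KO, 6.68 in WT) lay between them, at differences of 0.74, 0.73 and 0.69. On the series matrix values these 3 genes were at 0.49, 0.44 and 0.40, short of 1.5-fold, and H4c6 also was with an offset of 50, at 0.55. The remaining 3 H4 genes differed little. H4c3 had 6.60 in KO and 6.44 in WT, H4c4 had 6.50 in KO and 6.74 in WT, and H4c14, detected in the KO sample only, was at least 1.10-fold higher.

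Of the linker histone genes, H1f2 and H1f5 were detected. H1f2 had 9.76 in KO cells and 9.78 in WT cells, and its sign turned with median scaling (0.06) and cyclic loess (0.01). H1f5 was detected in the KO sample only, with 6.30 there and 5.46 in WT, at least 1.42-fold higher. It passed 1.5-fold with an offset of 1, with a detection threshold of 0.05 and when dim probes were kept.

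The class was also divided by position in the genome. On chromosome 13, 23 of 33 detected replication-dependent genes were at least 1.5-fold higher, against 8.15% of all genes, with a median of 0.83. On chromosome 3, 3 of 7 were, with a median of 0.20, and the 3 were H2ac21, H2ac20 and H3c14. The 3 measured genes of the chromosome 11 cluster and H4f16 on chromosome 6 were not detected. The difference between chromosomes was not tested, and it was not separated from histone family. When the class was split at its median intensity over both arrays, 15 of the 20 brighter genes and 11 of the 20 dimmer ones were at least 1.5-fold higher, with medians of 0.95 and 0.77. Of 6 measured pairs that start within 1000 bases of each other on opposite strands, 5 had both partners detected. Each is an H2A and H2B pair on chromosome 13. In all 5 both partners were higher in the KO sample, and the H2A partner had the larger difference: 1.62 for H2ac15 and 0.83 for H2bc15, 1.26 for H2ac12 and 0.79 for H2bc12, 1.34 for H2ac11 and 0.50 for H2bc11, 1.41 for H2ac7 and 0.86 for H2bc7, and 0.85 for H2ac8 and 0.61 (with a bound of 0.18) for H2bc8. The replication-dependent families as a whole had medians of 1.06 for H2A and 0.61 for H2B. An effect of pairing was not tested apart from family.

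Of the variants, H2ax stood 1.5-fold or more from WT and the other 5 less than that. H2ax, which encodes H2A.X and lies outside the clusters, had 10.77 in KO cells and 9.98 in WT cells, a 1.73-fold difference, and stayed past 1.5-fold under every setting tried. H2az1, encoding H2A.Z, had 12.94 in KO and 12.71 in WT, a difference of 0.23. The H3.3 genes differed by 0.33 for H3f3b (12.65 in KO, 12.32 in WT) and by -0.16 for H3f3a (12.74 in KO, 12.89 in WT). Macroh2a1, whose product carries a large non-histone domain, had 11.62 in KO and 11.57 in WT. H2aj, a replacement H2A gene, was the lowest, with 7.99 in KO and 8.55 in WT, a difference of -0.55. The signs of H2az1, H3f3b, Macroh2a1, H3f3a and H2aj were the same under the planned settings, in which none of these genes reached 1.5-fold. All 6 detected variants were detected on both arrays. With H2ax counted among the replication-dependent genes, none of the 5 remaining variants was 1.5-fold higher, and their median was 0.04.

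**Figure D3:**
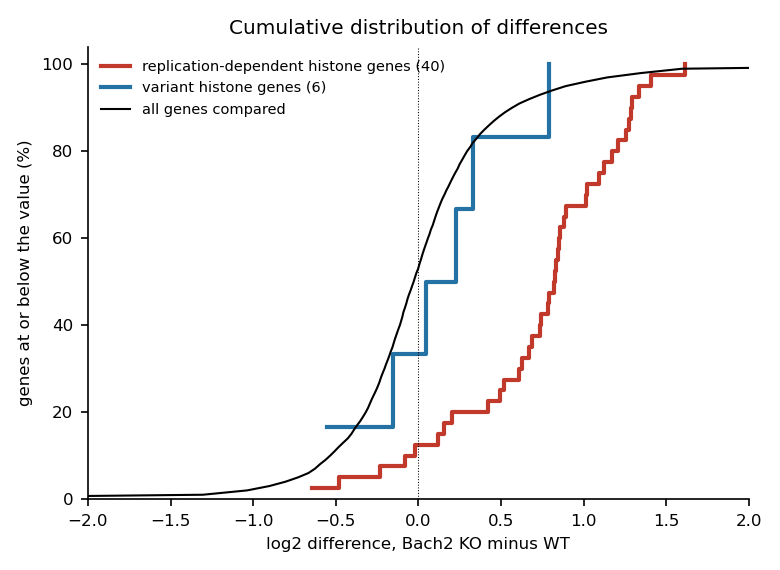
Share of genes (vertical axis, %) at or below a given log2 difference, KO minus WT (horizontal axis, cut at 2 in both directions), for the 40 detected replication-dependent genes, the 6 detected variants and all 7611 genes compared. The replication-dependent curve runs to the right, with its median at 0.82, while the variants (median 0.14) run near all genes (median -0.03).

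No histone member had a second detected probe, so no value has a check within its gene: 7 members had several probes, and the other probes of these genes were not detected on either array. The 23 undetected members were 15 replication-dependent genes (H1f1, H1f3, H1f4, H1f6, H2ac1, H2ac6, H2aw, H2bc1, H2bc3, H2bc6, H2bu1-ps, H2bu2, H4c2, H4c8 and H4f16) and 8 variants (H1f7, H1f8, H1f10, H2al1e, H2al1m, H2al1n, H2al2a and H2ap). H2ac1, H2bc1, H1f6, H1f7, H2al1 and H2al2 forms are known from testis and H1f8 from oocytes.

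Promoter motifs were then compared over windows of 300 bases, 250 before the annotated start and 50 after it, on both strands, for the 36 detected replication-dependent genes with a RefSeq entry. TATAAA was found in 22 of 36 (61.1%), against 15.7% of 27025 genes with an entry. CCAAT was found in 31 (86.1%, against 41.1%). The octamer ATTTGCAT was found in 8 (22.2%, against 1.97%), and TTTCGCGC also in 8 (22.2%, against 0.374%). The E2F forms TTTGGCGC and TTTCCCGC were found in none of the 36, and in 0.585% and 1.24% of all genes. TGAGTCA, the core of AP-1 sites that Bach factors also recognise, was found in none of the 36 and in 5.95% of all genes, which says only that these letters are not in these windows. The 8 genes with TTTCGCGC were H2ac7, H2ac10, H2ac11, H2ac12, H2ac22, H2bc7, H2bc11 and H2bc12, and the divergent partners among them share 1 stretch of DNA, so they are not separate occurrences. In the genes at least 1.5-fold higher, TTTCGCGC stood in 7 of 25 windows and TATAAA in 18. In the other detected ones they stood in 1 (H2bc11, the divergent partner of H2ac11) and 4 of 11. The other motifs went the other way, with CCAAT in 20 of 25 and 11 of 11 windows and the octamer in 5 of 25 and 3 of 11. Among the H4 genes, CCAAT stood in 2 of 7 windows, those of H4c3 and H4c4, neither of which was 1.5-fold higher. Every H1, H2A, H2B and H3 window held CCAAT, so its split came from the H4 genes alone. These motif splits are descriptions of few genes and were not tested. Of the variants with an entry, H3f3b had the TATA box, the CCAAT box and the octamer. H2az1, H3f3a and H2aj had the CCAAT box alone, and Macroh2a1 had none.

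The genes that supply and place histones were set beside the histones. Of 41 such genes with a probe, 36 were detected, 7 were at least 1.5-fold higher (19.4%, against 8.15%) and 1 was at least 1.5-fold lower, and their median was 0.05, near that of all genes. All 7 were among the 21 detected chaperone, import and centromere genes. Chaf1a and Chaf1b, subunits of CAF-1, which loads replication-coupled H3 and H4 behind the fork, were 3.20-fold and 2.07-fold higher. Chaf1a had 8.70 in KO cells and 7.02 in WT cells, and Chaf1b had 10.10 in KO and 9.05 in WT. Asf1b, which hands H3 and H4 to CAF-1 in dividing cells, was 2.24-fold higher (8.54 in KO, 7.37 in WT), whereas its paralog Asf1a differed by -0.55 (5.96 in KO, 6.51 in WT). Mms22l, a fork repair factor, was 1.85-fold higher. Its other probes stood at 1.26 and, not detected in WT, at 0.77, and on the series matrix values it was at 0.57, short of 1.5-fold. Nasp, which holds the soluble H3 and H4 pool, was 1.68-fold higher, with other probes at 0.81 and 0.04 and a mean over its probes of 0.54, short of 1.5-fold. Hat1, which acetylates new H4, was 1.63-fold higher and Cenpa, the centromeric H3 variant outside the symbol rule, 1.60-fold (13.27 in KO, 12.58 in WT).

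Some chaperones that handle the variants are given next. They were picked after the values were seen, from supply genes short of 1.5-fold (Atrx by its bound). Their small differences are thus no result about such chaperones as a group. For H3.3, Hira differed by -0.25, Ubn2 by -0.40 and Daxx by -0.43, and Atrx was detected in the KO sample only, at least 1.11-fold higher. For H2A.Z, Anp32e differed by 0.36, Ep400 by -0.19 and Vps72 by less than 0.01. Among 11 detected genes of histone mRNA transcription and processing the median was -0.01 and none was 1.5-fold higher by its bound. Zfp473 was detected in the KO sample only (6.25 there, 5.21 in WT), at least 1.37-fold higher. Lsm10, a subunit of the U7 particle, differed by -0.10 and Cpsf3, the endonuclease that cuts the mRNA, by 0.05. Eri1, an exonuclease that trims the stem-loop, was detected in the WT sample only, at least 1.53-fold lower in KO. It fell short of 1.5-fold on the series matrix values (-0.31) and with an offset of 50 (-0.49). The probe of Slbp, the stem-loop binding protein, was not detected on either array, and Npat, the coactivator of the clusters, had no probe here. The 4 detected histone-modifying enzymes ranged from -0.17 for Kat7 to 0.35 for Kmt5a, which methylates H4.

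S phase genes were higher alongside the replication-dependent histones. Of 18 detected, all were higher in the KO sample, where 46.7% of all genes were. At least 1.5-fold higher were 14, against 8.15% of all genes. The median of the 18 was 1.15, beside -0.03 over all genes compared. Cdc6, a licensing factor, was 2.89-fold higher, Tk1, thymidine kinase, 2.61-fold (its other probe 0.58), Mcm3, a helicase subunit, 2.58-fold, Mcm2, a helicase subunit that also binds H3 and H4, 1.72-fold and Pcna, the replication clamp, 1.66-fold. The summed normalized intensity of all 18 detected S phase genes was 43026 in the KO sample and 25946 in WT. Whether a larger share of cycling cells accounts for the histone values was not tested.

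**Figure D4:**
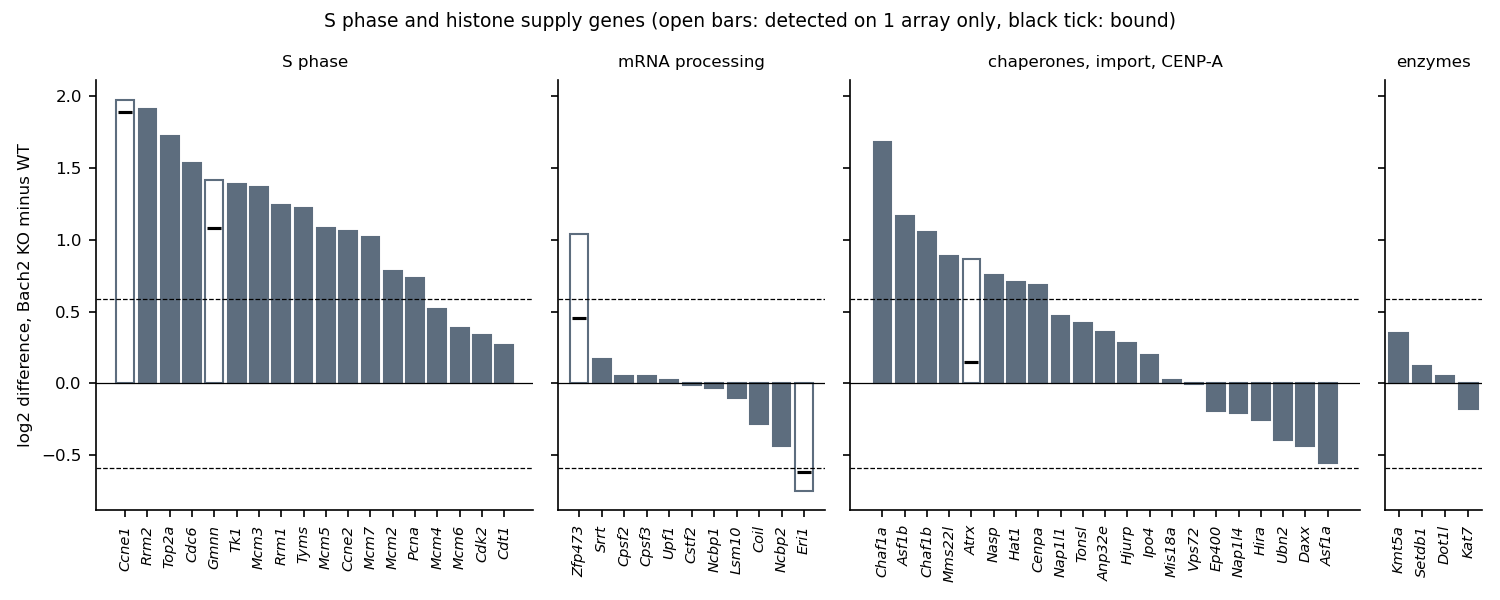
Log2 difference, KO minus WT, of detected S phase genes and of genes for histone mRNA processing, histone chaperones and histone-modifying enzymes, with dashed lines at 1.5-fold, open bars for genes detected on 1 array only and black ticks for their bounds. By their bounds, 14 of the 18 S phase genes, 7 of the 21 chaperone genes (Chaf1a at 1.68) and none of the 11 processing genes stand above the upper line. Over all genes compared, 8.15% do.

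The contrast between the classes was present under each setting tried. The replication-dependent median ranged from 0.55 on the deposited series matrix values to 0.88 with median scaling or an offset of 1, and the variant median from 0.04 to 0.26. On the series matrix values 20 of 40 replication-dependent genes were at least 1.5-fold higher, where 4.87% of all genes were. Of the 26 genes called higher, 19 kept the call in all 9 planned settings that give 1 value per gene. H3c10 is not among the 19 only because the setting of genes detected on both arrays leaves it out.

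**Figure D5:**
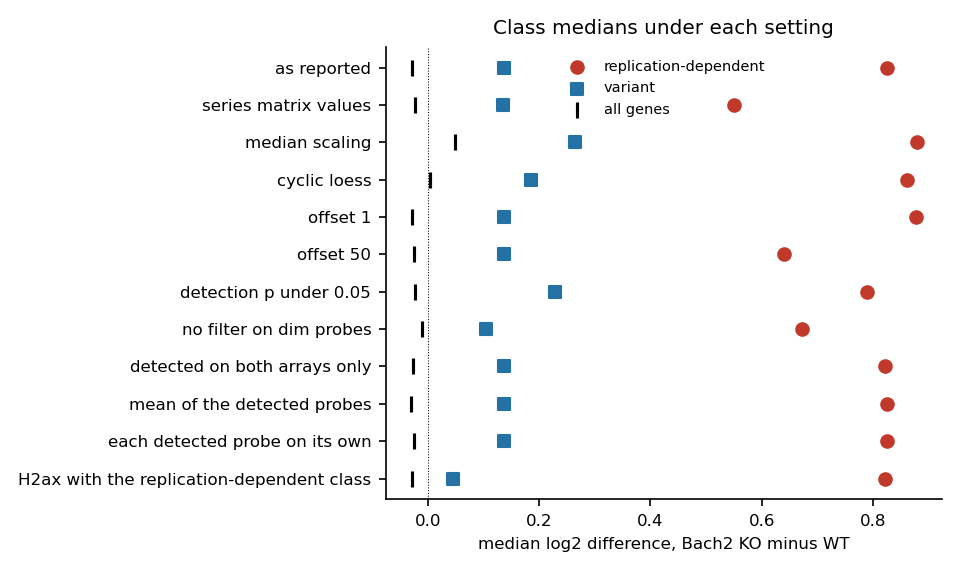
Median log2 difference, KO minus WT (horizontal axis), of replication-dependent genes (circles), variants (squares) and all genes compared (vertical ticks) under each processing setting. The circles lie to the right of the squares in every row, the nearest being the series matrix values at 0.55 and 0.13.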

How the data were processed

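RNA from 1 Bach2 KO and 1 WT sample of sorted spleen Treg cells was labelled with biotin-16-UTP by the array maker's standard procedure and hybridised to Illumina mouse BeadChips, per the labels' protocols. The sources used here name neither the scanning software nor its background method.

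For each probe and array the authors deposited an intensity, called non-normalized in the file header; 29.5% of KO and 30.4% of WT intensities were below 0, so background had been subtracted. A detection p-value per intensity was deposited with it. The deposited series matrix intensity values were a straight-line function of the same measurements for each array (slope 0.779 for KO and 0.782 for WT, largest residual 0.0091), thus linear and uncentred, with column medians of 95.6 for KO and 99.7 for WT.

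Background was modelled by normexp, using the detection p-values to estimate the noise, and after adding an offset of 16 the arrays were brought to shared quantiles and put on the log2 scale (neqc, limma 3.58.1, R 4.3.3). The offset shrinks the differences of dim genes, and quantile normalization hides any shift of all genes together. Of the probes, 23978 had 1 gene symbol in GEO's platform annotation, none had several and 1719 were unnamed. The 69 members matched RefSeq by gene number. The steps were tested on simulated arrays.

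Classes followed symbols: H1f1 to H1f6, H2ac, H2bc, H2bu, H2aw, H3c, H4c and H4f16 were replication-dependent, and the others variant. Every detected member is named; supply genes past 1.5-fold, and up to 5 S phase genes, are named, and supply genes below 1.5-fold were picked after their values were seen. Members and lists were chosen with earlier results of these data known. The number of arrays limits the precision.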

Additional observations from a re-analysis of the deposited data

How the results depend on the processing

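Alternatives were the deposited series matrix values, median scaling, cyclic loess, offsets of 1 and 50, a detection threshold of 0.05, no filter on dim probes, genes detected on both arrays only, the mean of detected probes, and each probe on its own. On the series matrix values the replication-dependent median was 0.55 and its distance from the variant median 0.42, against 0.82 and 0.69; these values keep a constant in every intensity, which pulls differences of dim genes towards 0. The choices added after seeing the data were the bounds and the class of H2ax. With H2ax moved, the count of variants at least 1.5-fold higher was 0. The count of replication-dependent genes at least 1.5-fold higher ranged from 20 of 40 to 31 of 55, and the supply median ranged from 0.04 to 0.14. Of 68 named histone, supply and S phase genes, 23 moved by more than the between-probe SD on the series matrix values, 9 with an offset of 50 and 7 with an offset of 1, none with a change of sign among called genes. No paired analysis was possible because each genotype had 1 array. No replicate could be left out for the same reason. Dim genes are limited by signal over background: 31 of 77 member probes were detected on neither array.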

Other observations

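Other proteins that bind nucleosomes were looked up, in lists chosen after the histone values were seen. HP1 proteins bind methylated H3 in heterochromatin, and all 3 of their genes were higher in the KO sample: Cbx5 had 8.20 in KO cells and 7.25 in WT cells (1.93-fold), Cbx1 had 6.75 in KO and 5.89 in WT (1.82-fold) and Cbx3 had 7.43 in KO and 6.87 in WT (1.47-fold). Among 5 detected high mobility group genes, 1 was at least 1.5-fold higher. This was Hmgb2, a DNA-bending protein abundant in dividing cells, with 10.46 in KO and 9.36 in WT (2.15-fold). Hmgn1, Hmgn2, Hmgn3 and Hmgn5, whose products bind nucleosome cores, differed by -0.25, 0.20, 0.20 and 0.53. Over all genes compared, 8.15% were at least 1.5-fold higher.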
